A study of Bos taurus with 252 samples.

Results

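Inflammatory signalling was followed through 10 genes in the whole blood of healthy beef steers that received 1 of 6 antimicrobials or none. They were the chemokine CXCL8, the cytokines IL1B, IL1A, TNF and OSM, the interleukin-1 antagonist IL1RN, the decoy receptor IL1R2, the prostaglandin synthase PTGS2, and the regulatory cytokines IL10 and TGFB1. The members were chosen by symbol, as 10 of the 33282 genes in the count table. All 10 were among the 19056 genes that passed the filter on low counts, which asked for more than 0.2 counts in each 1000000 of the library total (CPM) in at least 12 libraries. One library was made for each of 42 crossbred steers on each of 6 days, with day 0 drawn before a single administration and the others 3, 7, 14, 21 and 56 days later. The 7 groups of 6 steers were an untreated negative control (NC), the cephalosporin ceftiofur (CEFT), the fluoroquinolone enrofloxacin (ENRO), the phenicol florfenicol (FLOR), the tetracycline oxytetracycline (OXYT), and the macrolides tildipirosin (TILD) and tulathromycin (TULA). Every steer, the NC steers included, had earlier received tildipirosin, a growth implant of trenbolone acetate and estradiol, antiparasitic drugs and vaccines. Each group was housed as 1 pen and the groups were handled in a fixed order after day 0, NC first, so treatment, pen and order cannot be told apart.

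Cytokines of the interleukin-1 (IL-1) family and TNF are released mainly by monocytes and other leukocytes on contact with microbes or damaged tissue. IL-1 alpha (IL1A) and IL-1 beta (IL1B) act through a shared receptor, IL1RN occupies that receptor without signalling, and IL1R2 binds the ligands without passing a signal on. CXCL8 draws neutrophils out of the blood, OSM is an IL-6 family cytokine of myeloid and T cells, PTGS2 makes the precursor of prostaglandins, and IL10 and TGFB1 restrain inflammatory cells.

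The deposited counts of a library summed to a median of 43608836 (lowest 26073640, highest 74110289). Levels are CPM after trimmed mean (TMM) scaling, and changes are log2 differences with their standard error (SE). Genes were not scaled by length, so levels are compared between samples and not between genes. Defining genes of blood leukocytes were detected in all libraries, with CD3E of T cells at a median of 809 CPM, MS4A1 of B cells at 446 CPM and S100A9 of neutrophils at 676 CPM. Haemoglobin transcripts took between 0.00405 and 25.5% of the counts. Lane 1 held all of NC and ENRO, lane 2 all of TULA and lane 3 all of CEFT and OXYT, with FLOR and TILD split over a pair of lanes each, so a difference between NC and CEFT, OXYT or TULA cannot be told apart from a difference between lanes.

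All 10 members changed with day over the 42 steers (edgeR quasi-likelihood F test with steer as a block, largest adjusted p = 0.0045). The background was high, since 81% of all genes tested passed the same test. Of 50 comparisons of a later day with day 0, 37 passed a false discovery rate (FDR) of 0.05, 29 of them lower and 8 of them higher than day 0. TNF and TGFB1 were the members that rose, and each of the other 8 fell on at least 2 days.

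CXCL8 fell from day 7 on, but the day 7 call was fragile. On day 7, 24 of 42 steers were lower (edgeR FDR 0.039), and the call was lost in 10 of 16 alternative settings, each lane alone among them. The falls on days 14, 21 and 56 held in all 16. Its median was 11.9 CPM at the start (lowest 2.58, highest 33.8) and 13.8, 10.8, 7.96, 5.64 and 6.47 CPM on the 5 later days, with a lowest of 0.607 and a highest of 33.1 CPM on day 56. The ranges overlapped throughout, but 39 of the 42 steers were lower on day 56 than on day 0. The fitted change was -0.04 on day 3, which did not pass (FDR 0.82), and then -0.27, -0.73, -0.96 and, on day 56, -1.02 ± 0.11 (SE, edgeR FDR 8.1e-16). Over all genes 31.8% were called lower on day 56.

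IL1B started at a median of 270 CPM (lowest 112, highest 494) and stood at 211, 175, 219, 174 and 218 CPM on the later days, with a range of 126 to 417 CPM on day 56. It was lower than day 0 on each later day, with the largest fall on day 7, where 38 of 42 steers were lower and the change was -0.63 ± 0.08 (SE, edgeR FDR 6.1e-11). The day 56 change was smaller, at -0.25 ± 0.08 (FDR 0.0064). IL1A, the other IL-1 ligand, was close to the lower limit of detection, with medians between 0.414 CPM on day 21 and 0.839 CPM on day 0. In all, 4 libraries (CEFT steer 4 on day 21, OXYT steer 6 and TILD steer 8 on day 56, TILD steer 7 on day 7) had no IL1A count, and the limit a count of 0 allows (3 counts, counting error only) was between 0.0768 and 0.102 CPM. IL1A also fell on each later day, by 0.90 on the log2 scale on day 21 and by 0.61 on day 56, where 33 of 42 steers were lower.

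TNF went the other way. Its median was 28.4 CPM at the start (lowest 22.2, highest 35.9) and 33.4, 35.9, 39.8, 37.6 and 37.8 CPM on the later days, with ranges of 29.7 to 53.3 CPM on day 14 and 27.7 to 53.7 CPM on day 56. All 42 steers were higher on day 14 than on day 0, and 41 were on day 56. The change was 0.47 ± 0.03 (SE) on day 14 and 0.41 ± 0.03 on day 56 (edgeR, FDR 2.1e-30 and 4.8e-25), against 34.2% and 33.9% of all genes called higher on these days. OSM did not follow TNF. OSM had medians of 6.79, 7.29, 5.93, 7.33, 5.4 and 6.82 CPM over the 6 days, and it fell on days 7 and 21 (-0.42 and -0.44, edgeR FDR 2.0e-05 and 2.7e-06), with -0.04, -0.00 and -0.11 on days 3, 14 and 56, where it did not pass.

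**Figure D1:**
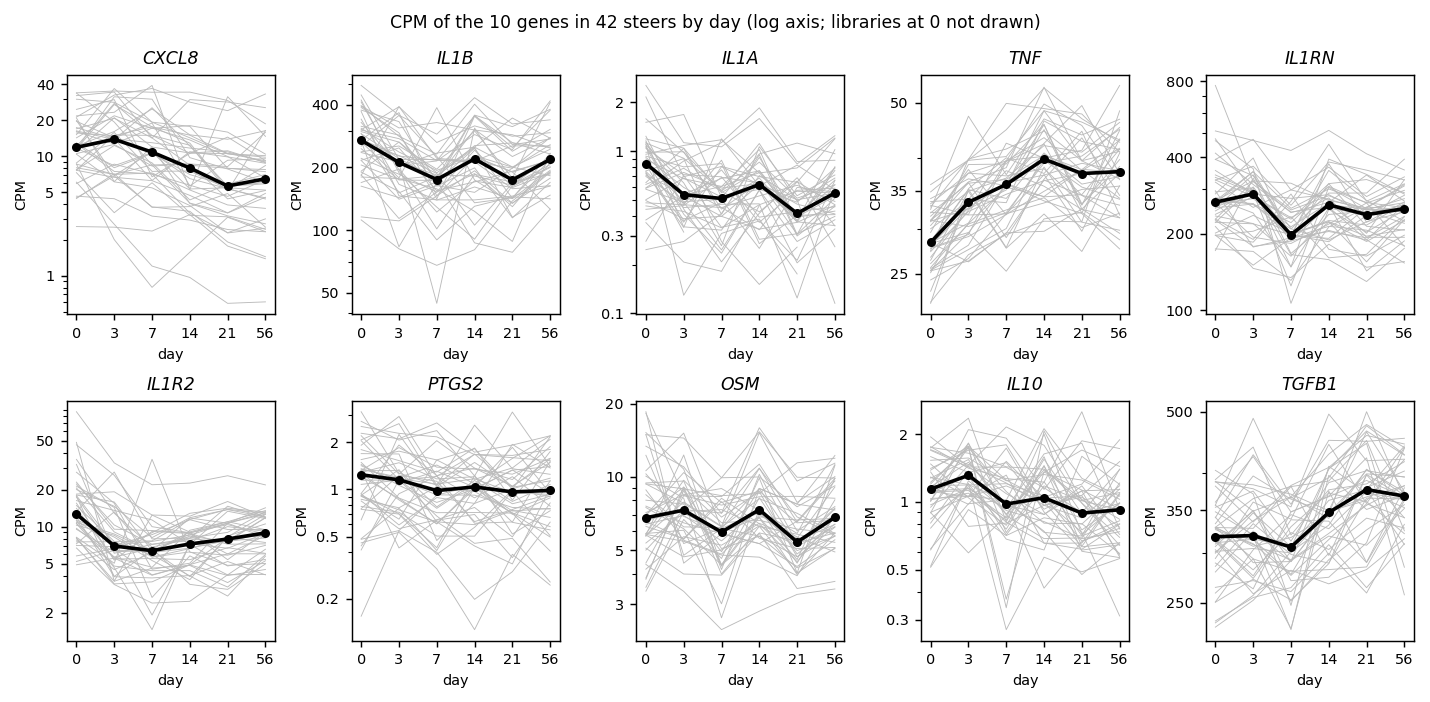
Level of each of the 10 genes on each sampling day, in TMM-scaled CPM (log axis), with 1 thin line for each of the 42 steers, the median over the steers as the thick line, days spaced evenly and libraries at 0 not drawn. The CXCL8 median goes from 11.9 on day 0 to 6.47 on day 56 and the TNF median from 28.4 to 37.8. The lines of single steers span a wide CXCL8 range on each day.

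Both brakes on IL-1 fell, IL1R2 more than IL1RN. IL1R2 had its highest median on day 0, 12.7 CPM (lowest 4.92, highest 86.4), and stood at 6.99, 6.40, 7.26, 7.96 and 8.93 CPM on the later days. The fall was present on day 3 in 35 of 42 steers (-0.82 ± 0.11, SE) and reached -1.15 on day 7 in 40 of 42 (edgeR, FDR 4.9e-10 and 3.2e-17, against 19.2% and 20.6% of all genes called lower). IL1RN had medians of 266, 287, 198, 260, 238 and 251 CPM over the 6 days. IL1RN fell on days 7, 21 and 56 (-0.45, -0.31 and -0.20, edgeR FDR 1.9e-09, 1.4e-05 and 0.0050) and was at -0.06 and -0.13 on days 3 and 14, which did not pass.

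PTGS2, at medians between 0.964 and 1.24 CPM, fell on days 7, 14 and 21 by 0.30, 0.23 and 0.29 on the log2 scale (edgeR FDR 0.0056, 0.028 and 0.0056). On these days 29, 28 and 24 of the 42 steers were lower. The calls were lost in 4, 8 and 4 of 16 alternative settings. On day 56 it was at -0.17 (edgeR, FDR 0.12). IL10 had medians of 1.14, 1.31, 0.978, 1.04, 0.892 and 0.922 CPM over the 6 days. It fell on days 21 and 56 (-0.27 and -0.31, edgeR FDR 0.0076 and 0.0027), and its day 3 value of 0.21 stood just outside the threshold (FDR 0.051). TGFB1 had medians of 318, 319 and 306 CPM on days 0, 3 and 7 and stood at 347, 377 and 368 CPM on days 14, 21 and 56. TGFB1 rose on days 14, 21 and 56 (0.15, 0.25 and 0.24, SE 0.04, edgeR FDR 5.5e-05, 8.1e-11 and 7.4e-10) in 32, 34 and 37 of the 42 steers.

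Read against all genes, the number of members called was 4 of 10 on day 3, where 41.3% of all genes were called, then 8 (45.9%), 7 (65.1%), 10 (66.6%) and 8 (65.7%) on the later days. Members called higher numbered 1, 1, 2, 2 and 2 (22.1%, 25.3%, 34.2%, 34.1% and 33.9% of all genes), and members called lower 3, 7, 5, 8 and 6 (19.2%, 20.6%, 30.9%, 32.5% and 31.8%). The members' median change was -0.04, -0.36, -0.18, -0.38 and -0.23 on the 5 days, where the median of all genes lay between 0.02 and 0.03.

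The 6 untreated steers showed part of this course alone. In NC, 0 members were called on days 3 and 7, 3 on day 14, 3 on day 21 and 4 on day 56 (edgeR, FDR 0.05), while 0.0367%, 2.8%, 27.8%, 22% and 27.7% of all genes were. TNF rose on days 14, 21 and 56 (0.37, 0.36 and 0.32), with 6 of 6 steers higher on days 14 and 56. IL1R2 fell on the same days (-1.19, -1.51 and -1.17), with 6 of 6 steers lower on days 21 and 56. On day 3 IL1R2 was already at -1.59 ± 0.37 (SE), lower in 6 of 6 NC steers, but did not pass (edgeR, FDR 0.12). TGFB1 rose on days 14 and 56 (0.23 and 0.31), IL1B fell on day 21 (-0.63) and CXCL8 fell on day 56 (-0.56, FDR 0.045, 5 of 6 steers lower). These calls depended on steer NC 13: without it 2 of the 10 calls in NC were left, and IL1R2 was at -0.74, -1.003 and -0.72 on days 14, 21 and 56 (edgeR, FDR 0.12, 0.051 and 0.15). The CXCL8 fall on day 56 passed the FDR only with NC 7, 12, 13 and 15 all present, and the IL1B fall on day 21 only with NC 5, 7, 12 and 13 (FDR up to 0.27 and 0.098 without 1 of them). The IL1R2 fall on day 14 was also lost without NC 12 (FDR 0.050) and the TGFB1 rise on day 14 without NC 5, 7, 13 or 15 (FDR up to 0.17), and TNF and TGFB1 on day 56 missed the FDR without NC 13 (0.28 and 0.26, FDR 0.057 and 0.070). At unadjusted p under 0.05, 1540 genes were called on day 3 and 3387 on day 7.

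Markers of the blood cell types moved over the same days. From day 0 to day 56 the summed level of 9 monocyte markers went from a median of 2519 to 1844 CPM, with 8 of 9 falling, and that of 10 neutrophil markers from 4510 to 3871 CPM, with 6 of 10 falling. The 9 T cell markers went from 1961 to 2807 CPM, with 8 rising and 1 falling, and the 7 B cell markers from 1726 to 2156 CPM, with 6 rising and 1 falling. The median share of haemoglobin counts was 0.224% on day 0, 3.07 and 3.36% on days 14 and 21, and 0.334% on day 56. Their part in the members' changes was not tested, and in whole blood fewer cells of a type and less RNA per cell cannot be told apart.

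The antimicrobials were compared with NC on each day, 6 treatments on 6 days, in comparisons that share the 6 NC libraries of that day. Of the 360 comparisons of a member, 4 passed an FDR of 0.1 (edgeR quasi-likelihood test), all on day 3, and 0 of the 60 on day 0. Of all genes, the day 3 test called 10.9% for CEFT, 3.33% for ENRO, 2.67% for FLOR, 3% for OXYT, 3.14% for TILD and 0.0105% for TULA. On days 0, 7, 14, 21 and 56 it called 0.0157%, 0.0481%, 0.13%, 0.0918% and 0.0385% of the genes over the 6 treatments together. At unadjusted p under 0.05 there were 49 member comparisons, of which 1 was on day 0. Of the 19056 genes tested, between 949 (CEFT) and 1378 (TILD) passed that p in a comparison on day 0. On the later days between 881 (OXYT, day 14) and 4807 (CEFT, day 3) did. The 49 are therefore not read as a result about the members. The 4 past the FDR were CXCL8 in CEFT and IL1RN in CEFT, ENRO and OXYT.

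CXCL8 was lower in the CEFT steers. On day 3 the CEFT steers stood at a lowest of 2.01, a median of 5.26 and a highest of 7.46 CPM, and the NC steers at 7.12, 12.5 and 32.4 CPM. All 6 CEFT steers were below the NC median, and the ranges met only at their ends. The difference was -1.66 ± 0.41 (SE, edgeR FDR 0.058), in a comparison that called 10.9% of all genes. Before treatment, on day 0, CEFT was at 4.48, 7.93 and 12.7 CPM and NC at 4.43, 12.9 and 21.2 CPM (-0.65, edgeR FDR 0.91), so the ranges overlapped but all 6 CEFT steers were already below the NC median. Without NC 7, NC 12 or NC 13 the day 3 difference missed the FDR of 0.1, at -1.55, -1.80 and -1.72 (FDR 0.12, 0.10 and 0.10).

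CEFT kept the lowest place in CXCL8 on the later days without passing the test, while the order of the other groups shifted. CEFT had the lowest median of the 7 groups on each of the 6 days, with 4.60, 3.33, 2.76 and 2.39 CPM on the 4 days after day 3, where NC had 13.9, 10.1, 7.89 and 6.80 CPM. The differences were -1.87, -1.86, -1.92 and -1.87, with edgeR FDRs of 0.29, 0.21, 0.29 and 0.96. On day 21 the groups did not overlap (CEFT highest 4.62, NC lowest 4.88 CPM), as for 0.672% of all genes in either direction. Among the 360 comparisons 3 did not overlap, against 0.81% of all genes over the 36 comparisons. ENRO had the highest CXCL8 median on 5 of the 6 days, 27.6 CPM on day 3 among them, and OXYT had it on day 7 (16.5 CPM). The number of treatments with a median above that of NC went from 4 on day 3 to 1 on days 14 and 21.

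In a model over all days (limma, the steer as a random effect), CXCL8 in CEFT was the 1 of 60 member tests that passed an FDR of 0.05, at -1.50 ± 0.35 (SE, FDR 0.0083), where 3.42% of all genes passed for CEFT, 0.43% for ENRO, 1.56% for FLOR, 0.666% for OXYT, 4.98% for TILD and 0.651% for TULA. Unadjusted, 11 of the 60 passed p under 0.05. No count over all genes at that p stands beside it, so it is not read as a result about the members. Taken as the change from day 0, the CEFT difference was -1.04 ± 0.41 (limma, unadjusted p = 0.012, FDR 0.53). Averaged over the 6 days of each steer, CXCL8 was at a lowest of 3.07, a median of 3.94 and a highest of 7.32 CPM in CEFT and at 4.42, 10.2 and 29.3 CPM in NC, and 5 of the 10 lowest steers of all 42 were CEFT steers. These means differed 2.72-fold, in the libraries that had already singled out this gene and group, so the difference is given with no test of its own.

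Because NC and CEFT were sequenced on different lanes, CEFT was also set beside OXYT, which shared its lane, in a comparison chosen after seeing the data. The OXYT steer means were at 2.32, 12.7 and 17.4 CPM, 1 OXYT steer lying below the highest CEFT steer, and CEFT was 2.33-fold lower (n = 6 and 6). CXCL8 and CEFT had been singled out on these same libraries, and the means include day 0, so this difference too is given with no test of its own. The day 3 difference from NC was -0.94 (edgeR, FDR 0.38) after the counts were adjusted for lane with ComBat_seq and -3.16 (FDR 0.48) with a lane term. Neither value decides between lane and treatment. ComBat_seq was not told the groups, so it takes out a CEFT difference along with the lane. The lane term rests on FLOR and TILD, the groups split over lanes. The other groups' medians of steer means ran from 8.24 CPM in TILD through 9.15 in TULA, 10.2 in NC, 12.5 in FLOR and 12.7 in OXYT to 15.5 in ENRO, and none of the 5 treatments among them differed from NC past the FDR of 0.05 (limma).

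**Figure D2:**
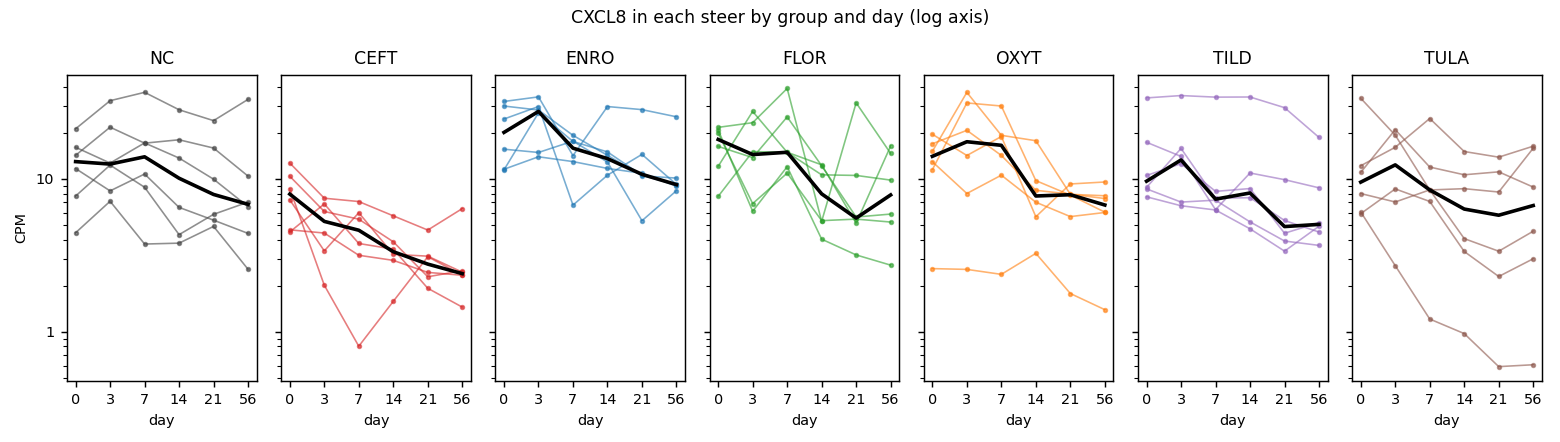
CXCL8 level by sampling day in each of the 7 groups, in TMM-scaled CPM (log axis, days spaced evenly), with 1 line for each of the 6 steers of a group and the group median as the thick line. The CEFT steers sit between 2.01 and 7.46 on day 3, where the NC steers sit between 7.12 and 32.4.

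IL1RN was higher than NC on day 3 in 3 treatments. The NC steers stood at a lowest of 146, a median of 184 and a highest of 287 CPM, the CEFT steers at 236, 322 and 352 CPM, the ENRO steers at 288, 316 and 361 CPM, and the OXYT steers at 281, 361 and 472 CPM. Only ENRO was clear of the NC range, and the highest NC steer overlapped CEFT and OXYT. The differences were 0.66 ± 0.15 (SE) in CEFT, 0.70 ± 0.14 in ENRO and 0.90 ± 0.16 in OXYT (edgeR, FDR 0.055, 0.051 and 0.038), where 10.9%, 3.33% and 3% of all genes were called. FLOR, TILD and TULA had medians of 252.4, 271 and 224 CPM on day 3 and did not pass. The OXYT call held with any 1 steer left out, the CEFT call was lost without NC 7, 12, 13 or 15 (0.58 to 0.66, FDR 0.11 to 0.12) and the ENRO call without any of these 4 or without ENRO 5 or 10 (0.63 to 0.73, FDR 0.10 to 0.13).

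Part of this order was present before treatment. NC had the lowest IL1RN median of the 7 groups on days 0, 3, 14, 21 and 56, and on day 0 the treatments exceeded NC by 0.26 to 0.63 on the log2 scale, with an unadjusted edgeR p of 0.0075 in OXYT (FDR 0.76). With ComBat_seq lane adjustment the day 3 difference was 0.35 in CEFT (edgeR, FDR 0.36), 0.70 in ENRO (FDR 0.051) and 0.61 in OXYT (FDR 0.29). ENRO was sequenced on the lane of NC, and CEFT and OXYT shared another lane, so for CEFT and OXYT the adjustment cannot keep treatment apart from lane. In TULA on day 56 the groups did not overlap either (TULA 265, 294 and 327 CPM, NC 155, 215 and 260 CPM), a separation seen in 0.661% of all genes, with a difference of 0.46 ± 0.12 (edgeR, FDR 0.32). The ENRO separation on day 3 was one of 2.18% of all genes. Averaged over all days, IL1RN in TILD was 0.42 ± 0.14 above NC and just missed the FDR of 0.05 (limma, FDR 0.054).

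The neutrophil markers on day 3 are given beside the IL1RN calls. Their summed level was at a lowest of 2954, a median of 3673 and a highest of 4673 CPM in NC, 4899, 5404 and 6673 CPM in ENRO, 4159, 4864 and 5365 CPM in OXYT and 3465, 3952 and 4534 CPM in CEFT, which lay inside the NC range. In TILD it was 3952, 4858 and 5737 CPM, and the medians of FLOR and TULA were 3890 and 3511 CPM. S100A9, abundant in neutrophils, passed the FDR of 0.1 as higher in ENRO, OXYT and TILD (1.04, 0.90 and 0.85, edgeR). In OXYT the T cell marker sum was 1642, 1851 and 2139 CPM against 2061, 2364 and 3049 CPM in NC, and CD3G and ZAP70 of T cells were called lower. The part of neutrophils in the IL1RN differences between groups was not tested.

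IL1R2, the decoy receptor, varied between days in NC as well as in the treatments. Its NC median was 11 CPM on day 0, 5.21 on day 3 and 8.92 on day 7, and that of OXYT was 14.5, 6.94 and 6.50 CPM on these days. One steer, NC 13, had 48.7 CPM on day 0 and 3.62 on day 3, and another, NC 7, had 35.5 CPM on day 7. At unadjusted p under 0.05 IL1R2 differed from NC in 15 of its 36 day comparisons, 12 higher and 3 lower, and 0 passed the FDR of 0.1 (edgeR, smallest FDR 0.14). The 3 lower values were all on day 7, in ENRO, FLOR and TULA (-1.03, -1.69 and -1.05), and all 6 treatments were higher on day 3 (0.69 to 1.32).

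A test of whether the course from day 0 differed from that of NC, over the 5 later days together, passed an FDR of 0.05 in 4 of 60 member tests (edgeR quasi-likelihood, steer as a block), and 12 passed unadjusted. No count over all genes at the unadjusted p stands beside the 12. The 4 past the FDR were IL1R2 in ENRO, FLOR and TILD (FDR 0.012, 0.016 and 0.048) and IL1RN in ENRO (FDR 0.045). Of all genes, 8.67%, 0.861% and 0.42% passed the FDR for ENRO, FLOR and TILD and 4.65%, 3.25% and 0.042% for CEFT, OXYT and TULA. For IL1R2 the day 3 change exceeded that of NC by 1.20 in ENRO, 1.15 in FLOR and 0.66 in TILD, and the day 7 change fell short of it, at -0.60, -1.09 and -1.22. For IL1RN in ENRO these were 0.42 and -0.56. IL1R2 in CEFT, OXYT and TULA did not pass (edgeR, FDR 0.076, 0.058 and 0.062, unadjusted p 0.0065, 0.0021 and 3.9e-05). Its differences from NC there had the same directions, at 0.53, 0.56 and 1.04 on day 3 and -0.70, -0.90 and -0.85 on day 7. The IL1R2 pattern was thus not particular to ENRO, FLOR and TILD. Steer NC 7 decided all 4 calls, in refits chosen after seeing the data: without it the FDRs were 0.12, 0.18 and 0.38 for IL1R2 in ENRO, FLOR and TILD and 0.19 for IL1RN in ENRO (edgeR), and 0 of the 60 tests passed. Without NC 13 the 3 IL1R2 tests still passed (FDR 0.029, 0.024 and 0.029), and without NC 1 the number of member tests that passed was 8. The IL1RN test was also lost without NC 5, 12, 13 or 15 or without TILD 5 (FDR 0.059 to 0.081), and the IL1R2 test in TILD without NC 12 (FDR 0.060).

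**Figure D3:**
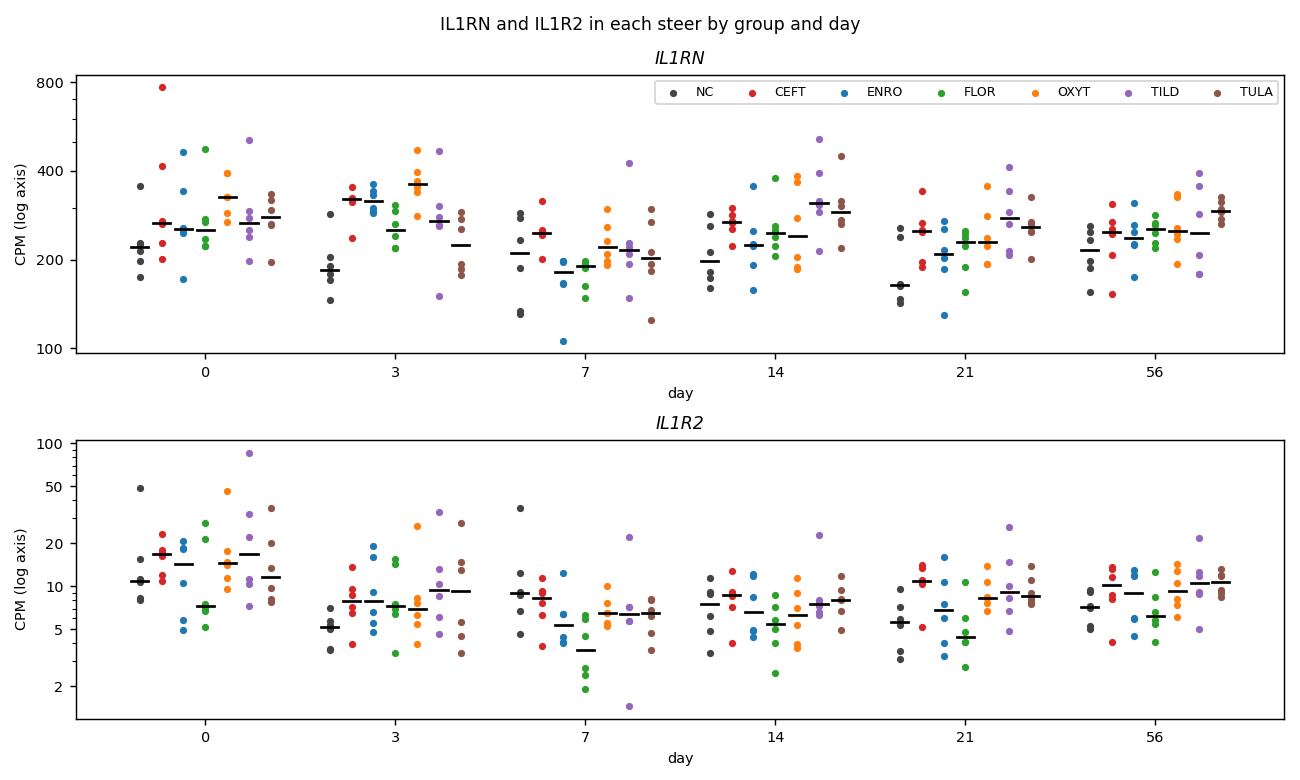
IL1RN (upper panel) and IL1R2 (lower panel) by sampling day in the 7 groups, in TMM-scaled CPM (log axis, days spaced evenly), with 1 point for each steer, coloured by group, and a bar at each group median. On day 3 the NC steers have IL1RN between 146 and 287 and the ENRO steers between 288 and 361, and NC 13 has IL1R2 at 48.7 on day 0.

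For the other 7 members no comparison with NC passed in any of the 3 tests. IL10 was lower than NC on day 21 in CEFT, ENRO, FLOR and TULA at unadjusted p under 0.05 (-0.82, -0.93, -0.72 and -0.90, edgeR FDR 0.23 to 0.86), with an NC median of 1.45 CPM that was the highest of the groups. TNF differed by -0.22 to 0.24 over its 36 day comparisons, with 4 at unadjusted p under 0.05, all higher (2 in CEFT, 1 in OXYT and 1 in TILD). IL1B had 2 such comparisons (ENRO on day 3, 0.54, and TILD on day 14, 0.58), TGFB1 had 2 (CEFT and FLOR on day 3, 0.34 and 0.28), OSM had 1 (OXYT on day 3, 0.64), PTGS2 had 1 (OXYT on day 56, -0.80) and IL1A had 0 (edgeR). The smallest FDR among these 7 members was 0.14, for TGFB1.

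The members differed widely in how far a steer kept its own level. After group and day were taken out, the steer accounted for 73.5% of the remaining variance of log2 CPM for CXCL8, 64.7% for PTGS2 and 55.6% for IL1R2. The share was 44.8% for TGFB1, 44.4% for IL1B, 35% for TNF, 34% for IL1RN, 33.7% for IL1A, 30.8% for OSM and 15.7% for IL10. The median over all genes tested was 34.8%, so CXCL8, at the percentile of 92.4, PTGS2 and IL1R2 were above most genes and IL10 was below most.

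Steer means over the 6 days show the width of that spread. CXCL8 ran from 2.02 CPM in TULA 7 to 30.8 CPM in TILD 10, a 15.2-fold range around a median of 11.4 CPM. Over the 6 days, TILD 10 was at 33.8, 35, 34.2, 34.3, 29.2 and 18.6 CPM, NC 1 was at 21.2, 32.4, 36.7, 28.3, 24 and 33.1 CPM, and OXYT 9 was at 2.58, 2.55, 2.37, 3.25, 1.77 and 1.39 CPM. TILD 10 and NC 1 stayed in the upper part of the herd and OXYT 9 in the lower part. TULA 7 started at 6.06 CPM and then stood at 2.70, 1.21, 0.970, 0.590 and 0.607 CPM. Of the 42 steers, 5 were among the 10 highest for CXCL8 on at least 5 of the 6 days (ENRO 5, ENRO 9, FLOR 6, NC 1 and TILD 10) and 7 were among the 10 lowest (CEFT 3, 4, 6, 8 and 10, OXYT 9 and TULA 7). For IL10 no steer was among the 10 highest that often, and 1 (OXYT 2) was among the 10 lowest.

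IL1R2 had the next widest range of the more abundant members, 3.87 CPM in FLOR 4 to 35.4 CPM in TILD 5, or 9.15-fold. TILD 5 was at 86.4 CPM on day 0 and at 33.1, 22, 22.7, 26.1 and 21.9 CPM on the later days. The same steer had the highest means of IL1B (372 CPM), IL1A (1.40 CPM) and IL1RN (447 CPM), so the herd's top level of 4 IL-1 genes was in 1 animal. PTGS2 ran 6.28-fold, from 0.342 CPM in TILD 8 to 2.15 CPM in ENRO 2, IL1A 5.20-fold from 0.269 CPM in CEFT 4, OSM 3.79-fold from 3.28 CPM in NC 15 to 12.4 CPM in OXYT 9, IL1B 3.33-fold from 112 CPM in FLOR 4, and IL1RN 2.74-fold from 163 CPM in NC 15. IL10 ran 2.63-fold (0.618 CPM in OXYT 2 to 1.62 CPM in NC 12). TGFB1 and TNF were the most even members, 1.53-fold (273 CPM in NC 15 to 418 CPM in CEFT 4) and 1.5-fold (29.2 CPM in ENRO 8 to 43.9 CPM in CEFT 3).

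**Figure D4:**
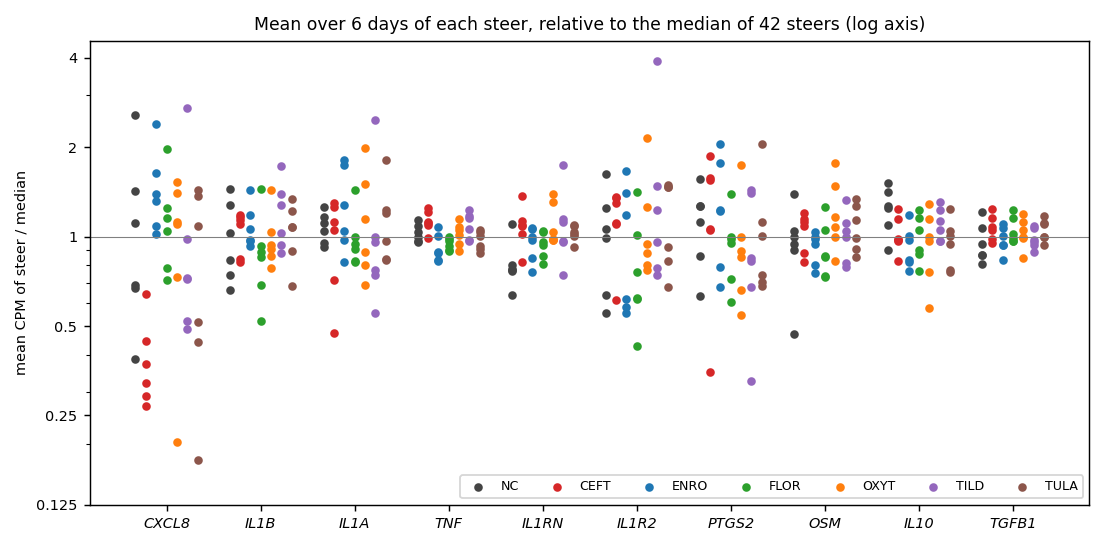
Mean TMM-scaled CPM of each of the 10 genes over the 6 days in each steer, divided by the median of the 42 steers (log axis, no unit), with 1 point for each steer, coloured by group. CXCL8 spans a 15.2-fold range with 5 CEFT steers among its 10 lowest, while TNF spans 1.5-fold.

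Across the 42 steers, the means of log2 CPM over days were compared after subtracting the group mean, in 45 pairs of members (permutation test, 100000 shuffles within groups). In 2 pairs both Pearson's r and Spearman's rho passed an FDR of 0.05, with no share over pairs of other genes beside it. IL1B and IL1A rose and fell together between steers, with r = 0.51 (permutation p = 0.00046, FDR 0.021) and rho = 0.52 (p = 0.00067, FDR 0.030). Within lanes 1, 2 and 3, each with 14 steers, r was 0.45, 0.67 and 0.48, and it was 0.52 without the 2 steers farthest from the median of IL1B. TNF and TGFB1 had r = 0.48 (permutation p = 0.0025, FDR 0.037) and rho = 0.50 (p = 0.0017, FDR 0.039), with 0.56, 0.56 and 0.33 within lanes and 0.48 without the 2 farthest steers. On day 0 alone r was 0.64 for IL1B with IL1A and 0.18 for TNF with TGFB1.

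The same steer means were set beside the mean log2 CPM of the markers of 9 cell types or gene programmes, in 90 relations. Of these, 14 passed the FDR by r and 6 by both r and rho. Genes outside the members were not set beside the markers, so no relation is shown to be particular to the members. By r alone, IL1B, IL1RN, IL1R2 and PTGS2 went with immediate early genes (0.51, 0.54, 0.56 and 0.43). Also by r alone, IL1B, IL1A and OSM went with neutrophil markers (0.48, 0.37 and 0.55) and OSM with eosinophil and basophil markers (0.50). The 6 past both are given next. TNF went with T cell markers (r = 0.74, permutation p = 1e-05, the smallest the shuffles can give, FDR 0.0009, and rho = 0.73, p = 2e-05, FDR 0.0018), at 0.77, 0.90 and 0.62 within lanes and 0.73 without the 2 farthest steers. TGFB1 went with T cell markers as well (r = 0.60, permutation p = 0.00011, FDR 0.0049, and rho = 0.60, p = 0.00017, FDR 0.0051), at 0.73, 0.40 and 0.58 within lanes and 0.56 without the 2 farthest. On day 0 alone r was 0.56 for TNF and 0.35 for TGFB1. Both genes of the correlated TNF and TGFB1 pair followed the T cell markers.

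IL1RN went with the markers of granulocytes. For eosinophil and basophil markers r was 0.54 (permutation p = 0.00043, FDR 0.013) and rho 0.62 (p = 7e-05, FDR 0.0031), at 0.63, 0.45 and 0.60 within lanes and 0.59 without the 2 farthest steers. For neutrophil markers r was 0.46 (permutation p = 0.0023, FDR 0.025) and rho 0.51 (p = 0.0020, FDR 0.036), at 0.64, 0.41 and 0.34 within lanes and 0.53 without the 2 farthest. On day 0 alone r was 0.30 for the eosinophil and basophil markers and 0.58 for the neutrophil markers. IL1A and OSM were lower in steers with higher B cell markers, IL1A at r = -0.51 (permutation p = 0.0028, FDR 0.025) and rho = -0.51 (p = 0.0018, FDR 0.036), at -0.62, -0.67 and -0.39 within lanes and -0.48 without the 2 farthest. For OSM these were r = -0.51 (permutation p = 0.0013, FDR 0.023) and rho = -0.48 (p = 0.0031, FDR 0.047), at -0.42, -0.51 and -0.60 within lanes and -0.51 without the 2 farthest. On day 0 alone the B cell values were -0.08 for IL1A and -0.17 for OSM. CXCL8, with the most stable steer levels, had no relation past both FDRs, either with a member or with a marker list.

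**Figure D5:**
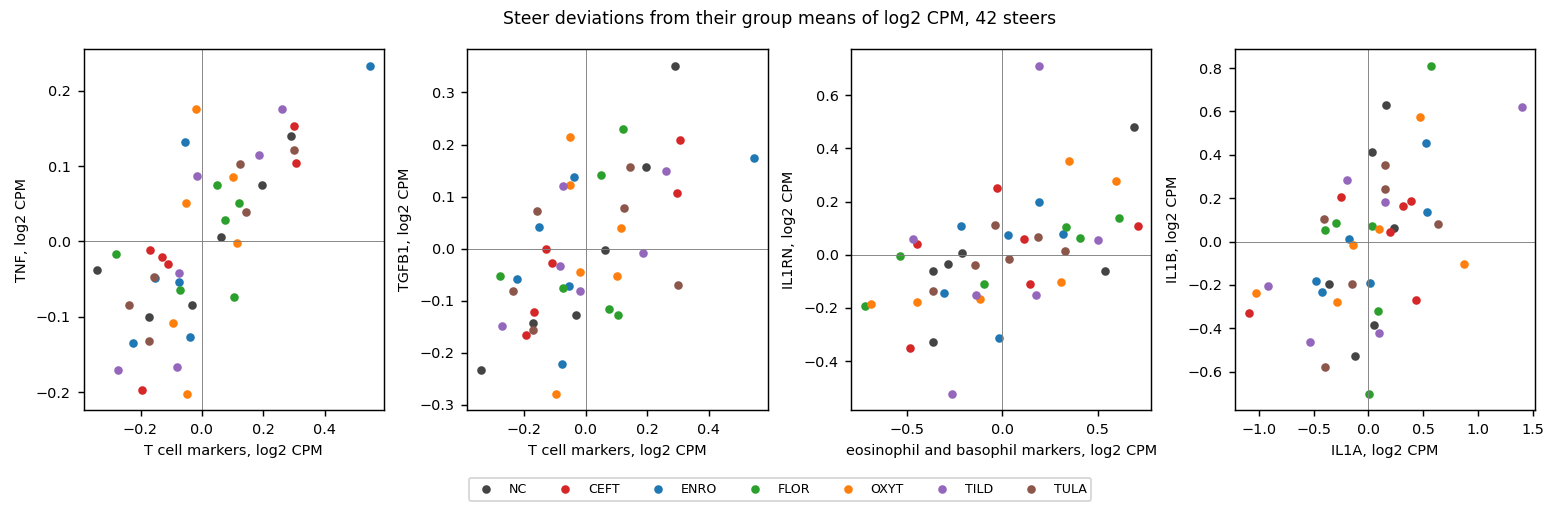
Deviations of the 42 steers from their group means in log2 CPM averaged over the 6 days, with 1 point for each steer, coloured by group. From left to right the panels set TNF against T cell markers (r = 0.74), TGFB1 against T cell markers (r = 0.60), IL1RN against eosinophil and basophil markers (r = 0.54) and IL1B against IL1A (r = 0.51).

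The genes around the members in 6 pathway lists are given for day 56 against day 0, as counts past the FDR of 0.05 over all 42 steers (edgeR), beside the 33.9% of all genes called higher and 31.8% called lower. In the IL-1 family, 2 of 12 genes tested rose and 6 fell. SIGIRR, a receptor that dampens IL-1 family signals, went from a median of 132 to 207 CPM (0.71), and GSDMD, whose cleaved form opens pores for IL-1 beta release, rose by 0.35. IL1RAP, the partner chain of the IL-1 receptor, went from 21.7 to 8.57 CPM (-1.30), and IL18 fell by 0.76 on the log2 scale.

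In the TNF family 4 of 13 rose and 7 fell. LTB, a lymphocyte cytokine, went from 470 to 697 CPM (0.65), LTA, its soluble relative, rose by 0.92, and TNFAIP6 and TNFSF13B, the B cell survival factor BAFF, were at -1.20 and -1.003. Among chemokines and neutrophil chemokine receptors 1 of 13 rose and 3 fell. CXCR1, a receptor for CXCL8, went from 315 to 230 CPM (-0.51), and the macrophage chemokines CCL3 and CCL4 were at 0.18 and -0.17. In the list of the IL-6 and OSM family with colony-stimulating factors 2 of 12 rose (LIF, 0.50, and EBI3, 0.33) and 7 fell, with LIFR at -0.81 and IL12B at -0.78.

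For IL-10 and TGF-beta signalling 3 of 13 rose and 5 fell. LTBP3, which binds latent TGF-beta, rose by 0.83 and TGFB3 by 0.58, while SMAD3, which carries the TGF-beta signal to the nucleus, went from 49.8 to 27 CPM (-0.64) and the receptor TGFBR1 was at -0.59. TGFB1 rose on that day, while SMAD3 and TGFBR1, named for having the largest falls of the list, went the other way. With 3 genes of the list higher, 5 lower and 5 not called, no opposition across the pathway is shown. The median change of these 5 lists was -0.27, -0.17, -0.19, -0.34 and -0.03, in the order given, against 0.02 for all genes. The genes IL6, CSF2, CSF3, IL11, IL12A, IL19, IL22, IL33, IL36A, IL36B, IL36G, IL36RN and CXCL3 were under the filter on low counts and were not tested.

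Other pathway genes were called against NC on day 3 (edgeR, FDR 0.1). IL23A, a subunit of interleukin 23, was higher in CEFT, ENRO, OXYT and TILD (0.47 to 0.70), GSDMD in CEFT, ENRO and OXYT (0.45 to 0.52), IL1RAP in ENRO and OXYT (0.80 and 1.23), and TNFRSF1A, the main TNF receptor, in CEFT and OXYT (0.61 and 0.63). IL6R was called in TILD on day 14 (1.65), the only gene of these lists called against NC after day 3.

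The genes whose level followed each member most closely over all libraries, among genes outside the 10 members and after subtracting each group and day mean, are given as a description, since these libraries share steers and lanes. IL1RN was closest to TNFRSF1A (r = 0.80) and CYTH4 (0.73), IL1B to SLC25A33 (0.74) and NUDT3 (0.73), and TGFB1 to CCDC97 (0.81) and MARK4-2 (0.80). TNF was closest to the T cell genes CD2 (0.61) and LAT (0.59), OSM to SEMA4D (0.68) and ZFP36 (0.67), and IL1R2 to ARAP3 (0.62) among those reported. For PTGS2 they were CD46 (0.57) and CD59 (0.55), for IL1A TARS (0.55) and TMEM154 (0.53), for CXCL8 LOC112442052 (0.54) and RASSF6 (0.51), and for IL10 ELN (0.37) and C7H19orf66 (0.36).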

How the data were processed

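Whole blood mRNA from 42 steers was sequenced on 6 days. Per the labels and the study's methods, the authors trimmed the reads (Trimmomatic 0.39), aligned them to ARS-UCD1.3 with HISAT2 (version 2.1.1 in the submitters' processing notes, another in the study's methods), assembled transcripts (StringTie 2.2.0) and derived gene counts for 150-base reads. The deposited counts are whole-number estimates from coverage, not normalized or adjusted for lane.

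Genes over 0.2 CPM in at least 12 libraries (19056 of 33282) were TMM-scaled. Differences from NC on a day used the 12 libraries of a pair of groups (edgeR 4.0.16 quasi-likelihood, FDR 0.1). Changes from day 0 and time courses used edgeR with steer as a block, and effects over all days limma 3.58.1 with the steer as a random effect (FDR 0.05), in R 4.3.3. P-values were adjusted by Benjamini-Hochberg over all genes tested. The labels name the steer of each sample, and samples of 1 steer deviated together (median correlation 0.37 over 5000 genes, lowest 0.23, above 0.1 in 42 of 42 steers). The value of -0.09 between steers of a group is partly built in, since group and day means were subtracted first. For correlations the log2 scale had 2 prior counts. Scripts were tested on simulated data. Alternatives were RLE scaling, no filter, haemoglobin left out, voom, DESeq2 1.42.0, likelihood ratio tests, ComBat_seq (sva 3.50.0) or a term for lane, other blocks, and leaving out steers, groups or lanes.

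All 10 members are named. From each pathway list the 2 genes past the FDR with the largest rise and the 2 with the largest fall by day 56 are named, with further calls added after their values were seen, and for each member the 2 most correlated genes, except where an item is not reported here. The members, lists and tests were chosen with earlier results of these data known.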

Additional observations from a re-analysis of the deposited data

Results flagged for a closer look

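In groups of 6 steers, the value of 1 steer stood apart from the other 5 by Dixon's 95% criterion in 17 of 196 sets tested (8.67%). The sets did not cover every member, group and day, and all 17 were of CXCL8, IL1RN, IL1R2 or PTGS2. Chance gives about 1 in 20 in independent sets. These sets repeat the same steers over days and in their means, so no excess over chance can be read from the share. For CXCL8 the steer OXYT 9 stood below its group on days 0, 21 and 56 (2.58, 1.77 and 1.39 CPM) and in its mean over days (2.32 CPM). ENRO 9 stood above its group in CXCL8 on days 14 and 56 (29.7 and 25.4 CPM), TILD 10 on day 7 (34.2 CPM) and CEFT 5 on day 56 (6.38 CPM), and CEFT 10 stood below on day 7 (0.802 CPM).

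For IL1RN, CEFT 8 was low on day 3 (236 CPM), ENRO 2 was low on day 7 (106 CPM) and FLOR 3 was high on day 0 (474 CPM). For IL1R2, NC 13 was high on day 0 (48.7 CPM), TILD 5 was high on day 14 (22.7 CPM), and CEFT 6 was low on day 21 (5.23 CPM) and in its mean over days (5.53 CPM). For PTGS2, the mean of CEFT 3 was low (0.368 CPM).

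The course over days differed from that of NC, by a test of the difference itself (edgeR, FDR 0.05), for IL1RN in ENRO (FDR 0.0446) and for IL1R2 in ENRO (0.0124), FLOR (0.0155) and TILD (0.0481). These 4 tests share the NC libraries, and each was lost without steer NC 7 (FDR 0.19, 0.12, 0.18 and 0.38 in the same order). IL1R2 in CEFT, OXYT and TULA did not pass (edgeR, FDR 0.076, 0.058 and 0.062) but differed in the same directions on days 3 and 7.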

How the results depend on the processing

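All counts are out of the members' tests named in the report. The 37 changes from day 0 went to 24 in lane 1 alone. The 10 changes in NC became 6 with no replicate block and 2 (without NC 13) to 11 with 1 steer left out. The 4 day differences from NC became 1 with ComBat_seq by lane (1 also with the likelihood ratio test), 1 with a lane term, 7 with the likelihood ratio test and 18 with DESeq2. Where a group shares no lane with NC, ComBat_seq by lane can take out a treatment difference along with the lane. The numbers in steer names pair nothing beyond a name, and OXYT, TILD or TULA, with 1 call, had 0 with that number as a replicate block. The 1 group effect became 0 as the change from day 0 within steers, 0 with ComBat_seq, 2 on days 3 to 56 alone, 2 with RLE, 4 with no filter, 17 with no replicate block and 1 to 4 with 1 steer left out (2 without CEFT 4, 8 or 10, 4 without NC 5). The 4 time course calls became 1 with limma voom, 2 with no filter and 0 (without NC 7) to 8 (without NC 1) with 1 steer left out. The 2 correlated pairs became 10 on day 0 alone.

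Changes from day 0 that had not passed the test turned sign as follows. CXCL8 on day 3 was 0.11 in lane 1, 0.061 with voom, 0.051 with no replicate block, 0.069 without CEFT and 0.012 without FLOR. IL1RN on day 14 was 0.16 in lane 2. PTGS2 was 0.070 in lane 1, 0.065 without CEFT and 0.0041 without TILD on day 3, and 0.12 in lane 2 on day 56. OSM was 0.15 in lane 3 and 0.027 without NC on day 3, and 0.092 in lane 2, 0.029 in lane 3, 0.056 with voom and 0.059 without NC on day 14. IL10 was 0.065 in lane 2 on day 7, and 0.13 in lane 2 and 0.029 in lane 3 on day 14. TGFB1 was -0.014 in lane 1 on day 3, and 0.029 in lane 3 and 0.00078 without ENRO on day 7. The causes were not tested, except that a lane or group left out means fewer steers.

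Of the values for single members, 904 kept their direction and side of the threshold, 114 lost the call, 7 gained it and 22 turned sign. With 6 steers a group, most members' differences were smaller than the spread among steers. At about 1 CPM or less, IL1A, PTGS2 and IL10 rest on few counts.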

Other observations

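Around PTGS2, the genes of prostaglandin and leukotriene synthesis and their receptors split evenly. From day 0 to day 56, 6 of 13 rose, 6 fell and 1 was not called (edgeR, FDR 0.05 over all 42 steers), with a median change of -0.27 against 0.02 for all genes. ALOX5, the first enzyme of leukotriene synthesis, went from a median of 5.87 to 27.7 CPM (log2 change 1.98 ± 0.14, SE), and HPGD, which inactivates prostaglandins, from 3.52 to 10.3 CPM (1.43 ± 0.14). The prostaglandin E2 receptors PTGER2 and PTGER4 fell, from 2.87 to 1.13 CPM (-1.27 ± 0.10) and from 119 to 76.3 CPM (-0.60 ± 0.05). In the 6 NC steers alone these 4 changes were 2.22, 1.64, -1.46 and -0.61 (edgeR, largest FDR 0.011). ALOX5AP, which presents arachidonic acid to ALOX5, was higher than NC on day 3 in ENRO and OXYT (0.88 and 0.80, edgeR FDR 0.093 and 0.066), PTGES2 was higher in CEFT (0.65) and PTGER2 was lower in FLOR (-0.82).

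Further genes of the cytokine lists that passed the FDR of 0.1 on day 3 were LTA in CEFT (1.44), SOCS3, a brake on cytokine receptor signals, in ENRO (0.85), and SMAD3 in OXYT and TILD (-0.88 and -0.87) (edgeR). Of the remaining marker lists, 5 of 8 eosinophil and basophil genes rose and 1 fell from day 0 to day 56, 1 of 6 platelet genes rose, 1 of 6 natural killer and cytotoxic genes rose and 5 fell, and 1 of 13 immediate early genes rose and 8 fell. All 8 erythroid genes rose on days 14 and 21 and 1 did on day 56.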
